A study of Mus musculus with 4 samples.

Results

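The immune infiltrate of B16F10-OVA melanoma in wild-type mice was compared between 9 and 12 days of tumour growth. All cell barcodes of the 2 wild-type libraries with at least 200 detected genes and at most 10% mitochondrial UMIs were taken, which gave 5450 of the 11224 cells kept in all 4 libraries of the study. Of these, 1777 cells came from day 9 and 3673 from day 12. B16F10-OVA is a mouse melanoma line that carries ovalbumin as a model antigen. In both groups, 1000000 of its cells were placed under the skin of C57BL/6 mice of the WT genotype, with no further treatment named in the labels. The tumours of more than 4 mice were pooled per group, minced and kept in Accumax for 30 min, and live cells (DAPI-negative, CD45-positive) were sorted, so cells without CD45 were removed by the gate. Equal numbers of sorted cells went into droplet-based 3' RNA sequencing (10x Genomics), which counts unique molecular identifiers (UMIs). The other libraries, of the same tumour in mice with a miR-155 deletion in T cells (miR-155 TCKO, taken at the same days; the Cre driver is not given in the sources used here), are set beside the wild-type values only where stated. The age and sex of the mice are not given in the sources used here.

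A growing tumour recruits monocytes from the blood, which mature in the tissue into macrophages, and macrophages can take up inflammatory, antigen-presenting, lipid-handling or tissue-repair programmes. CD8 T cells that recognise tumour antigen divide, acquire cytotoxic granules and, under lasting stimulation, display inhibitory receptors such as PD-1, while naive and memory T cells keep genes for survival and for travel through lymph nodes. NK cells kill without antigen receptors, and conventional dendritic cells (cDC1 and cDC2) carry antigen to T cells, in part after a maturation step.

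Each side of the comparison was 1 library from 1 pool of tumours. There was therefore no replicate check and no test, and the 95% intervals below cover counting error only, not differences between mice, pools or preparations. The intervals of gene levels and ratios treat UMIs summed over cells as independent, so they leave out differences between cells as well. The day of growth and the preparation run cannot be told apart. The median kept cell held 9658 UMIs and 2476 genes at day 9 and 7392 UMIs and 2090 genes at day 12, and the shallowest barcode in the file held 3800 UMIs at day 9 against 2191 at day 12. Mitochondrial transcripts took a median of 1.69% and 1.93% of UMIs. The 2 wild-type libraries shared 9 barcode sequences.

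Cells were sorted into lineages by the UMI sums of fixed marker genes, for example Cd3d, Cd3e and Cd3g for T cells, Cd8a and Cd8b1 among these for CD8 T cells, Ncr1, Klrb1c and Klre1 for NK cells, and genes such as Csf1r, Fcgr1, Adgre1, Ms4a7, C5ar1 and Clec4a1 for monocytes and macrophages. Levels are given in CPM, the gene's UMIs per 1000000 UMIs of all the gate's cells in that library, first for day 9 and then for day 12. Genes outside the marker sets were then read in the gate where they belong. Such levels describe a gate, and without the other gates beside them they do not show that it is specific. Thy1, a T cell surface protein, was at 738 and 853 CPM in the CD8 gate. Eomes, a transcription factor of NK cells, was at 153 and 156 CPM in NK cells, and Lyz2, the lysozyme of myeloid cells, was at 23030 and 17270 CPM in the monocyte or macrophage gate. B cells were almost absent, with 5 and 8 cells.

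The composition of the infiltrate differed most in CD8 T cells and in monocytes and macrophages. CD8 T cells made up 756 cells or 42.5% (Clopper-Pearson interval 40.2 to 44.9) at day 9 and 233 cells or 6.34% (5.58 to 7.18) at day 12, a share ratio of 0.149 (0.13 to 0.171). Monocytes and macrophages made up 268 cells or 15.1% (13.4 to 16.8) and then 1808 cells or 49.2% (47.6 to 50.9), a ratio of 3.26 (2.91 to 3.66). The share of all T cells together went from 52.1% to 15.0%. CD4 T cells without Foxp3 were few, with 35 and 44 cells (1.97% and 1.2%), as were regulatory T cells, which carry Foxp3, with 26 and 40 cells (1.46% and 1.09%). Because the day 12 library held a larger number of shallow cells, the ratios were also taken over barcodes with at least 3800 UMIs. This limit is the lowest total of day 9. It therefore kept all 1777 cells of day 9 and 2875 of the 3673 of day 12, and removed cells from day 12 only. The ratios were then 0.122 for CD8 T cells and 3.84 for monocytes and macrophages.

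The remaining lineages differed less. NK cells were 11.5% at day 9 and 13% at day 12, a ratio of 1.13 (0.968 to 1.32), and cDC1, which cross-present antigen to CD8 T cells, were 5.18% and 5.25%, a ratio of 1.01 (0.797 to 1.29). Gated on barcodes thinned to 2000 UMIs, the cDC1 ratio was 0.607 (0.416 to 0.887). cDC2 were 2.7% and 4.6%, a ratio of 1.70 (1.24 to 2.34), and mature dendritic cells were 2.64% and 3.59%, a ratio of 1.36 (0.979 to 1.89). Plasmacytoid dendritic cells, the main source of type I interferon in viral infection, were 2.48% and 0.817%, a ratio of 0.33 (0.208 to 0.523). T cells that passed neither the CD8 nor the CD4 and Foxp3 gates (other T cells below) were 6.08% and 6.37%, but this class depends on depth: its ratio of 1.05 was 0.395 over barcodes with at least 3800 UMIs, and that of NK cells was then 0.718. Cells with markers of more than 1 lineage were 6.87% and 4.0%, and cells that opened no gate were 1.13% and 4.22%, with median depths of 6712 and 3597 UMIs in the latter.

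**Figure D1:**
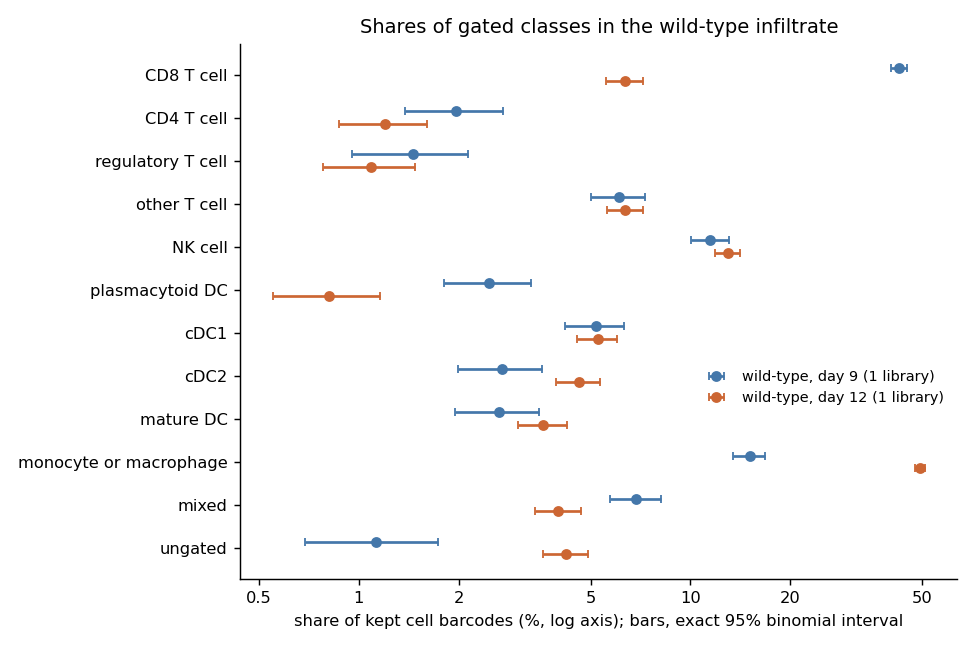
Share of kept cells in each lineage (percent, log axis) for the wild-type libraries of both days, with Clopper-Pearson intervals that cover counting error only. CD8 T cells sit at 42.5% and 6.34%, monocytes and macrophages at 15.1% and 49.2%, while the intervals of NK cells and of cDC1 overlap between the days.

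Shares of one sort must sum to the whole, so ratios between lineages were also taken. There were 2.82 CD8 T cells for each monocyte or macrophage at day 9 and 0.129 at day 12. For each regulatory T cell there were 29.1 and 5.83 CD8 T cells, and for each NK cell 3.71 and 0.489. Among cells other than T cells, monocytes and macrophages were 31.5% and 57.9%, NK cells 23.9% and 15.2%, and cDC1 10.8% and 6.18%. In the miR-155 TCKO libraries the share ratio of monocytes and macrophages was 0.925 (0.874 to 0.979), from 49.9% to 46.2%, and that of CD8 T cells 0.306 (0.232 to 0.403). The difference between the genotypes was not tested. Numbers of cells per tumour are not given in the sources used here, so a lower share cannot be told apart from a gain of the other lineages.

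Within each lineage, a gene counts below as higher or lower at day 12 when its CPM differed by at least 1.5-fold, among genes with at least 20 UMIs over the pair. The minimum holds for the sum of both days, and the UMI sums of the gates were unequal. They were 2652903 and 16108470 in monocytes and macrophages and 11645146 and 1509474 in CD8 T cells. A gene could thus pass through the deeper day alone. Calls near the minimum then rest on few UMIs of the other day. In the monocyte or macrophage gate 10385 genes were measured, of which 11.8% were higher and 11.8% lower. Set beside this background, genes of tissue-resident macrophages were mostly higher. Of 18 list members 16 were measured, 13 of these were higher and 1 was lower, and their median log2 ratio was 2.71. This and the other gene lists were chosen with earlier results of these data known. Such counts therefore describe the lists and do not test them.

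Pf4, a platelet-type chemokine also made by resident macrophages (ENSMUSG00000029373, chr5:90772435-90773383 on the GRCm38 plus strand), had 13 UMIs at day 9 and 5016 at day 12, or 4.9 and 311 CPM, a ratio of 63.5 (37.1 to 119). Folr2, a folate receptor of perivascular and resident macrophages (chr7:101839988-101857194, minus strand), was at 7.92 and 123 CPM, a ratio of 15.6 (10.2 to 25.2). Lyve1, a hyaluronan receptor, had 0 and 434 UMIs, which makes it at least 23.8-fold higher against a floor of 3 UMIs. These genes were at or near the detection limit in the day 9 library. Gas6, the ligand of the Axl and Mertk receptors for clearing dead cells, was at 1.51 and 23.2 CPM, a ratio of 15.4 (5.95 to 56.7). Cbr2, a carbonyl reductase, was at 10.9 and 81.3 CPM, and Stab1, a scavenger receptor, at 10.2 and 41.5 CPM, a ratio of 4.08 (2.78 to 6.24). The list's exception was Timd4, a phosphatidylserine receptor of long-lived resident macrophages, at 2.26 and 1.12 CPM with a ratio interval of 0.188 to 1.52. F13a1, a coagulation factor subunit, was at 196 and 154 CPM.

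Other genes near 0 at day 9 differed by folds of similar size. Igf1, a growth factor made by repair-type macrophages, had 0 and 442 UMIs (at least 24.3-fold higher), Cd209f, a lectin, 0 and 260 UMIs (at least 14.3-fold), and Mmp12, macrophage elastase, 0 and 257 UMIs (at least 14.1-fold). All 3 were at 0 UMIs over the 268 day 9 cells of the gate. Among the 12 highest genes by the naming rule, Pmp22, a membrane protein best known from myelin, was at 0.754 and 17.1 CPM, a ratio of 22.7 (6.23 to 189). Serpinb6a, an intracellular protease inhibitor, was at 2.26 and 31.9 CPM, a ratio of 14.1 (6.44 to 38.6), and Igfbp4, which binds insulin-like growth factors, at 1.51 and 21.1 CPM.

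Of the 17 alternatively activated macrophage genes, all measured, 14 were higher and 1 was lower, with a median log2 ratio of 1.92. Arg1, arginase, which consumes the arginine that T cells need (chr10:24915221-24927484, minus strand), had 48 and 2916 UMIs, or 18.1 and 181 CPM, a ratio of 10.0 (7.53 to 13.6). Mrc1, the mannose receptor CD206, was at 66.3 and 200 CPM, a ratio of 3.02 (2.59 to 3.53). Retnla, a secreted protein induced by interleukin 4, was at 269 and 933 CPM, a ratio of 3.47 (3.22 to 3.74), and Ccl24, an eosinophil chemokine, at 21.5 and 82.1 CPM, a ratio of 3.82 (2.93 to 5.08). Chil3, a chitinase-like protein that monocytes also make, went the other way, from 292 to 127 CPM, 2.31-fold lower (2.12 to 2.51).

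**Figure D2:**
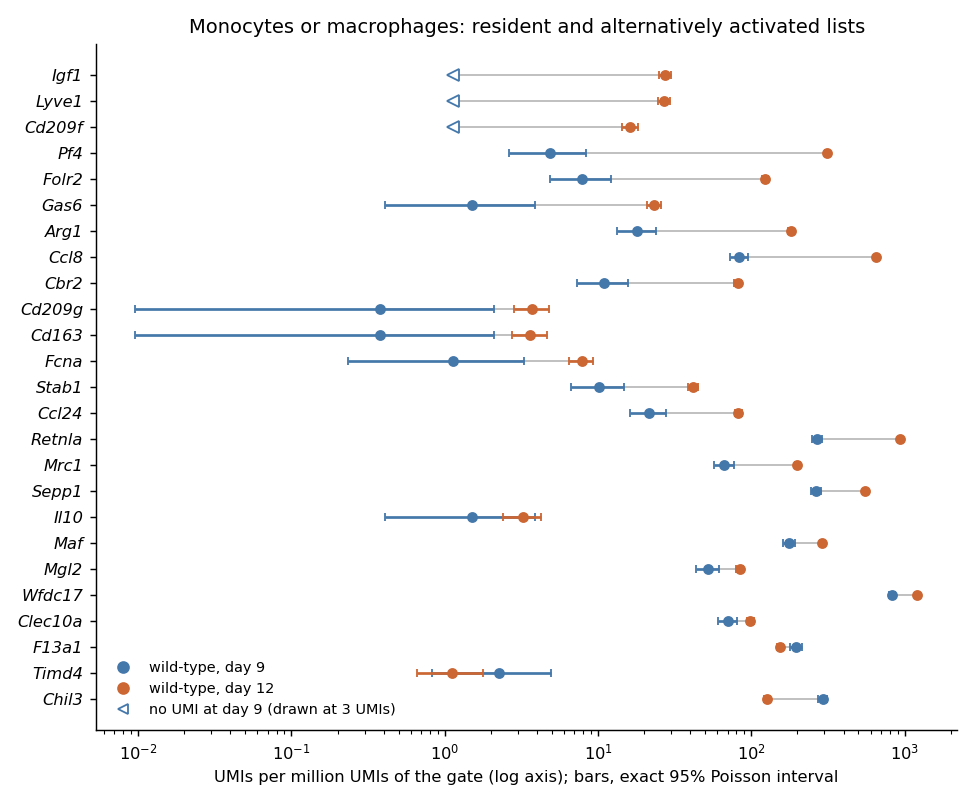
Levels of members of the resident and alternatively activated lists in the monocyte or macrophage gate (CPM, log axis) for both wild-type days, with exact Poisson intervals and open triangles at the floor of 3 UMIs for genes with no UMI at day 9. Pf4, Folr2 and Arg1 lie far to the right at day 12, while Chil3 goes from 292 to 127.

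More cells also held UMIs of these genes at day 12. After every cell was thinned to 2000 UMIs, so that depth did not differ, 2.24% (0.826 to 4.81) of the gate's cells at day 9 and 11.4% (9.97 to 12.9) at day 12 had a UMI of Lyve1, Folr2, Cd163 or Timd4, with 5.97% and 21.7% unthinned. In NK cells, which should lack these genes, the thinned shares were 0% (up to 1.79%) and 1.26%, at median depths before thinning of 5492.5 and 3773 UMIs against 9309 and 8494 in monocytes and macrophages. Mrc1 was seen in 7.09% (4.32 to 10.8) and 28.2% (26.1 to 30.3) of thinned cells, with 0% and 0.63% in NK cells, and in 28.4% and 58.8% of unthinned cells. Arg1 was seen in 0.746% and 8.19% of thinned cells, with 4 of 204 NK cells at day 9 and 0.63% at day 12, so the day 9 share was at background, and in 4.1% and 13.4% of unthinned cells. At the thinned depth these genes were thus seen in a minority of the gate's cells on both days. Other marker sets of the gate went both ways. Thinned shares were 4.48% and 2.38% for Ace, Treml4 or Cd300e, and 28.4% and 22.8% for at least 2 UMIs of Cxcl9 and Cxcl10. They were 8.58% and 14.3% for Trem2 or Gpnmb, and 35.4% and 39.5% for Gbp2b or Il18bp. For at least 2 UMIs of Ly6c2 they were 62.7% and 67.4%, with 26.5% and 20.4% in NK cells.

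Lipid and lysosome genes differed less, with 10 of 21 measured members higher, 0 lower and a median log2 ratio of 0.56. Gpnmb, a glycoprotein of lipid-laden macrophages, was at 3.77 and 19.9 CPM, a ratio of 5.27 (2.83 to 11.1), Fabp5, a fatty acid binding protein, at 110 and 328 CPM, and Trem2, a lipid receptor, at 46 and 102 CPM, a ratio of 2.22 (1.85 to 2.69). Ctsd, a lysosomal protease, was at 310 and 592 CPM. Apoe, the apolipoprotein of the same programme, was at 1427 and 1446 CPM, and Spp1, osteopontin, at 246 and 234 CPM, so these abundant members were under the fold. The complement genes C1qa, C1qb and C1qc, which encode the 3 chains of C1q, were at 922, 1665 and 813 CPM at day 9 and 1822, 2766 and 1492 CPM at day 12. C3, the central complement component, was at 98.8 and 55.2 CPM, 1.79-fold lower. Timp2, a metalloproteinase inhibitor, was at 36.9 and 180 CPM, a ratio of 4.86 (3.98 to 6.01).

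Chemokine genes of myeloid cells split, with 7 of 18 higher and 4 lower. Ccl8, a monocyte-attracting chemokine typical of resident macrophages, was at 82.9 and 649 CPM, a ratio of 7.83 (6.85 to 8.99). Cxcl2, a neutrophil attractant, was at 22.6 and 65.9 CPM and Ccl6 at 2433 and 4266 CPM. Ccl2, the main attractant of monocytes, was at 1603 and 1874 CPM, below the fold. Ccl5 was at 390 and 130 CPM, 3.0-fold lower (2.78 to 3.23), and the interferon-induced CXCR3 ligands Cxcl9 and Cxcl10, which draw in effector T cells, were at 408 and 270 CPM (1.51-fold lower) and at 1004 and 634 CPM (1.58-fold lower, 1.52 to 1.65). T cells are a rich source of Ccl5. The summed T cell markers of the gate were 36.9 and 17.4 CPM, and their part in the lower Ccl5 was not tested.

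Inflammatory and interferon genes were more often lower than higher in the same gate. Of 20 inflammatory monocyte genes 4 were higher and 7 lower, with a median log2 ratio of -0.31. Hp, haptoglobin, was at 192 and 90.4 CPM, 2.12-fold lower (1.91 to 2.35), and Tnf at 37.3 and 20.5 CPM, 1.82-fold lower (1.44 to 2.29). Il1b was at 194 and 155 CPM. Ly6c2 and Plac8, markers of classical monocytes, were at 3222 and 3142 CPM and at 5396 and 5199 CPM, so monocyte-type transcripts remained abundant beside the resident-type genes. Saa3 and Nos2, products of activated macrophages, were among the members that were higher, at 3.02 and 15.7 CPM and at 3.77 and 9.87 CPM.

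Of 29 genes induced by interferon gamma 1 was higher and 8 were lower (median log2 ratio -0.28), and of 23 type I interferon genes 0 were higher and 5 lower (median -0.41). The GTPase Irgm1 was at 314 and 112 CPM, 2.79-fold lower (2.57 to 3.03), Gbp2 at 939 and 526 CPM, 1.79-fold lower, and Cmpk2 at 65.2 and 28.8 CPM, 2.26-fold lower. Irgm1 was lower past the fold in all 7 gates compared, so its value is not particular to this gate. Isg15, a ubiquitin-like protein, was at 1372 and 944 CPM, 1.45-fold lower and so short of the fold. Few antigen presentation genes passed the fold. Of 22 class I pathway genes 0 were higher and 2 lower, B2m was at 7825 and 9013 CPM, Cd74, the class II invariant chain, at 18500 and 20530 CPM, and H2-Aa at 6719 and 7311 CPM. The 2 class II genes that were lower were H2-Oa and H2-Ob, chains of the peptide-loading regulator H2-O, at 19.2 and 2.92 CPM (6.59-fold lower, 4.34 to 10) and at 12.8 and 3.41 CPM.

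The genes at the low end by the naming rule were mixed in function. Gsr, glutathione reductase, was at 96.1 and 12.8 CPM, 7.48-fold lower (6.2 to 9.03). Hpgd, which breaks down prostaglandins, was at 47.9 and 8.19 CPM, and Ifitm1, an interferon-induced membrane protein, at 342 and 72.9 CPM, 4.7-fold lower (4.3 to 5.13). Tagap, a GTPase-activating protein, was at 45.2 and 8.63 CPM. Cell cycle genes were higher in 8 of 24 and lower in 2, with Top2a at 8.29 and 17.7 CPM and Stmn1 at 31.3 and 65.3 CPM. Nxpe4, Serpinb10, Adgre4, Hes1, Cd177, Dmkn and Fam83f were also among the 12 lowest. Of the ligands of inhibitory receptors, Pdcd1lg2 (PD-L2) was at 8.67 and 22.7 CPM, a ratio of 2.62, and Cd274 (PD-L1) at 39.6 and 56.2 CPM.

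The miR-155 TCKO pair, with 1867 and 941 cells in this gate and no library in common with the wild-type pair, gave the following values side by side. There, 14.0% of the 10329 genes measured in both pairs were higher and 11.4% lower. Of its 15 measured resident macrophage genes 14 were higher at day 12 and 0 lower, with a median log2 ratio of 4.30, and Pf4 was at 217 and 860 CPM. Of the wild-type genes past the fold, 43.9% of those higher and 41.8% of those lower were past it in the same direction there. Of 23 type I interferon genes 22 were higher and 0 lower in the TCKO pair (median log2 ratio 0.98), beside 0 higher and 5 lower in the wild-type pair, and Isg15 was at 397 and 869 CPM. Retnla was at 4.18 and 1848 CPM and Arg1 at 213 and 376 CPM. None of these differences between genotypes was tested.

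Genes of cholesterol synthesis were mostly lower at day 12 in monocytes and macrophages, CD8 T cells and cDC1. In monocytes and macrophages 13 of 15 were lower and 0 higher, with a median log2 ratio of -1.22. The promoters of 3 members are shown because these genes had among the lowest ratios of the list and their windows hold the letters that the factor NF-Y is known to bind beside SREBP-2, the activator of this pathway. Each window runs from 250 bases before to 50 bases after the gene's start in the RefSeq table (build GRCm38.p6), 5' to 3' on the gene's strand, with every ATTGG or CCAAT in capitals (1 box read on either strand). The windows lie at chr13:8885356-8885655, plus strand, for Idi1, chr13:119690101-119690400, plus strand, for Hmgcs1 and chr5:4104648-4104947, minus strand, for Cyp51.
Idi1: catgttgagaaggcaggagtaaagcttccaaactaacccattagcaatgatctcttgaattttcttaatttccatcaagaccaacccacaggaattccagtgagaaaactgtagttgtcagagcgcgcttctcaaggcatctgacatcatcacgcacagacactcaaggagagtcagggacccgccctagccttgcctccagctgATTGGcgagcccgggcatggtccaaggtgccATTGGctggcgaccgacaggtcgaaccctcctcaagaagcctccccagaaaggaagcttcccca
Hmgcs1: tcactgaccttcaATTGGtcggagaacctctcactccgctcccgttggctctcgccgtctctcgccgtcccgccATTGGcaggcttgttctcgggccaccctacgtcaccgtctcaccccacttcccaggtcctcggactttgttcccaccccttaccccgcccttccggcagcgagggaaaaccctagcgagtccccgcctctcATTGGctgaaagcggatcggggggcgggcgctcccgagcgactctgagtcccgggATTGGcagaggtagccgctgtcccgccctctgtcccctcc
Cyp51: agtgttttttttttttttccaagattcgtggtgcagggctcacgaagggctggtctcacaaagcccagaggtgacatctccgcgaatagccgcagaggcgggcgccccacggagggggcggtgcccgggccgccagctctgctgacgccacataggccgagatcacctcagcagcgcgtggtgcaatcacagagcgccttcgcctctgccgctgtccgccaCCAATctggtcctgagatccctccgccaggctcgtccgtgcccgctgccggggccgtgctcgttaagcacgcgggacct
The box was found 2, 4 and 1 times in these windows. Of the 15 genes 9 were matched in the table by symbol, and all 9 had a window with a box (9 of 11 windows), against 37.4% of all 32851 windows in the table. Lss and Dhcr7, which did not pass the fold (log2 ratios -0.32 and -0.25), were among the 9, so the box did not follow the ratio. A match of letters is a description of the sequence only.

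The levels behind these sequences were low but well counted in the monocyte or macrophage gate. Idi1, isopentenyl diphosphate isomerase, was at 40 and 9.37 CPM, 4.26-fold lower (3.29 to 5.5). Hmgcs1, which makes HMG-CoA, was at 47.1 and 12.5 CPM, 3.76-fold lower (2.98 to 4.72), and Cyp51, lanosterol demethylase, at 53.5 and 17.4 CPM, 3.08-fold lower (2.5 to 3.78). Hmgcs1 was lower past the fold in all 7 gates compared, so its value is not particular to this gate either. Fdps, farnesyl diphosphate synthase, was at 112 and 54.9 CPM, 2.04-fold lower. The 2 members that did not pass the fold were Dhcr7 at 10.2 and 8.69 CPM and Lss at 2.64 and 2.23 CPM. In the TCKO pair all 15 were lower, with a median log2 ratio of -1.85, and Hmgcs1 was at 91.2 and 16.7 CPM.

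CD8 T cells of day 12 had higher levels of naive and memory genes and lower levels of inhibitory receptor genes than those of day 9. In this gate 10173 genes were measured, with 11.5% higher, 18.0% lower and a median log2 ratio of -0.06. Of 16 measured naive and memory genes 15 were higher and 0 lower, with a median log2 ratio of 1.57. This list, too, was chosen with earlier results of these data known. Klf2, a transcription factor that keeps T cells circulating (chr8:72319033-72321656, plus strand), had 1248 UMIs at day 9 and 708 at day 12, or 107 and 469 CPM, a ratio of 4.38 (3.98 to 4.8). S1pr1, the receptor for exit from tissue that Klf2 induces, was at 8.76 and 53.7 CPM, a ratio of 6.13 (4.52 to 8.28). Il7r, the interleukin 7 receptor, was at 22.5 and 92.8 CPM, Tcf7, the stem-like T cell factor TCF-1, at 23.1 and 84.8 CPM, a ratio of 3.67 (2.95 to 4.55), and Bcl2, a survival gene, at 30.7 and 176 CPM, a ratio of 5.73 (4.87 to 6.74). Ccr7, which directs entry to lymph nodes, was at 23.6 and 54.3 CPM. Ccr9, a gut-homing receptor, was the member that did not pass the fold, at 3.26 and 2.65 CPM.

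Inhibitory receptor and exhaustion genes were on the other side, with 0 of 15 higher, 12 lower and a median log2 ratio of -1.05. Pdcd1, which encodes PD-1 (chr1:94038305-94052553, minus strand), was at 405 and 232 CPM, 1.75-fold lower (1.57 to 1.95). Lag3 was at 418 and 166 CPM, 2.52-fold lower (2.22 to 2.88), Havcr2 (TIM-3) at 91.1 and 30.5 CPM, 2.99-fold lower (2.23 to 4.11), and Tox, a nuclear factor of exhausted cells, at 152 and 92.1 CPM, 1.65-fold lower (1.39 to 1.97). Klrc1 (NKG2A) was at 312 and 103 CPM and Rgs16, a G protein regulator, at 168 and 38.4 CPM, 4.37-fold lower (3.36 to 5.77). Cd160, Btla and Nr4a2 did not pass the fold, at 115 and 126, 8.07 and 6.62, and 72.1 and 53 CPM.

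**Figure D3:**
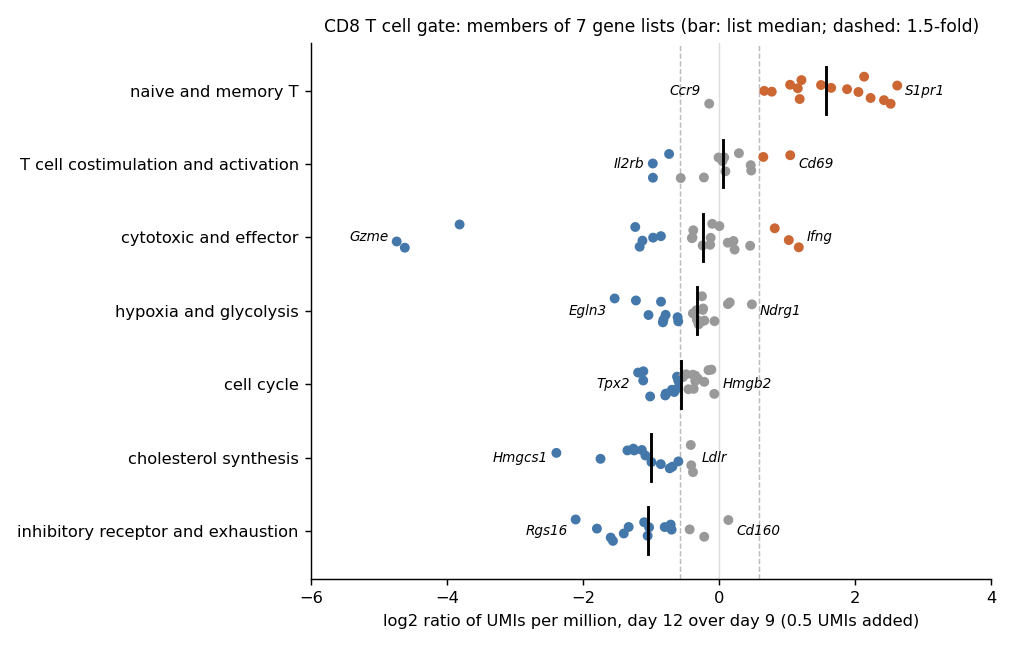
Log2 ratio of day 12 over day 9 in the CD8 gate (horizontal axis) for each measured member of 7 gene lists, 1 point per gene, with bars at the list medians and dashed lines at 1.5-fold. Of the naive and memory genes 15 of 16 lie beyond the right line, and of the inhibitory genes 12 of 15 lie beyond the left line.

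Cytotoxic genes went both ways, with 3 of 23 higher and 8 lower. Of the granzymes of the C to G cluster, 3 were near or at 0 at day 12. Gzmf (chr14:56205263-56211417, minus strand) had 476 UMIs at day 9 and 2 at day 12, or 40.9 and 1.32 CPM, a ratio of 0.0324 (0.00391 to 0.118). Gzmd had 163 and 1 UMIs, a ratio of 0.0473 (0.00119 to 0.267), and Gzme 103 and 0 (at least 4.45-fold lower against a floor of 3 UMIs). Near-identical copies in this cluster may share reads, so the split among them is uncertain. Prf1, perforin, was at 58.9 and 25.8 CPM, 2.28-fold lower (1.65 to 3.23), while Gzmb, the main granzyme, was at 2107 and 1593 CPM and Gzma at 222 and 206 CPM, both short of the fold. Gzmk, the granzyme of less differentiated CD8 T cells, was at 138 and 280 CPM, a ratio of 2.03 (1.82 to 2.26). Ifng was at 308 and 693 CPM, a ratio of 2.25 (2.1 to 2.41), Xcl1, the chemokine that draws in cDC1, at 213 and 375 CPM, and Cd69, an early activation marker, at 38.4 and 78.8 CPM. Tnfrsf9 (4-1BB), a costimulatory receptor of recently triggered cells, was at 393 and 199 CPM, 1.97-fold lower (1.75 to 2.22).

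Cell cycle and glycolysis genes were more often lower. Of 24 cell cycle genes 0 were higher and 12 lower, with a median log2 ratio of -0.57. Mcm6, of the replication helicase, was at 153 and 70.2 CPM, and Tpx2, a spindle protein, at 64.4 and 27.8 CPM, while Mki67 and Top2a were short of the fold at 98.4 and 78.8 CPM and at 200 and 171 CPM. The histone gene Hist1h2ap was at 781 and 232 CPM. Of 22 glycolysis genes 0 were higher and 9 lower, with Pgk1 at 157 and 66.9 CPM, 2.35-fold lower (1.93 to 2.9), and Ldha at 1609 and 1381 CPM. The metallothioneins Mt1 and Mt2, which bind zinc, were at 310 and 58.3 CPM and at 145 and 19.9 CPM, and Serpine2, a protease inhibitor, at 103 and 11.3 CPM, 9.13-fold lower (5.68 to 15.7). Cholesterol synthesis genes were lower in 12 of 15, with Hmgcs1 at 29.6 and 5.3 CPM. Of 27 interferon gamma genes 4 were higher and 4 lower (14.8% each), beside 11.5% and 18.0% of all genes in this gate. Of 23 type I genes 3 were higher and 2 lower. The median log2 ratios of these interferon lists were 0.05 and 0.18. Of 14 costimulation and activation genes 2 were higher and 3 lower.

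By state, 30.6% (27.3 to 34) of the CD8 gate at day 9 and 15.0% (10.7 to 20.3) at day 12 were cycling by their marker UMIs after thinning to 2000 UMIs, with 1.87% and 2.1% of monocytes and macrophages scored the same way. Naive-like cells were 15.2% (12.7 to 18) and 36.1% (29.9 to 42.6), and cells with inhibitory receptor UMIs were 58.6% (55 to 62.1) and 23.6% (18.3 to 29.6). In monocytes and macrophages the thinned shares were 1.87% and 2.93% for the naive-like markers and 0.373% and 0.664% for the inhibitory ones. Unthinned, the 3 shares were 56.5%, 40.1% and 88.5% at day 9 and 22.3%, 51.9% and 45.5% at day 12, against 4.48%, 4.1% and 11.6% and then 5.31%, 9.13% and 8.79% in monocytes and macrophages. The thinned intervals of all 3 states did not overlap between the days. Thinning did not change which barcodes the files held, from 3800 UMIs at day 9 and from 2191 at day 12. State shares were not retaken over a common limit, so the part of this difference in the shares was not tested.

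Depth differed more in this gate than in the other 6 compared, at a median of 12887.5 UMIs per CD8 T cell at day 9 and 4670 later. Over cells with at least 3800 UMIs, a limit that removed cells of day 12 only, 10.6% of all genes were higher and 17.4% lower. Of the lists, 13 naive and memory genes were then higher and 1 lower, and 12 inhibitory genes were lower. Of the cell cycle genes 4 of 24 (16.7%) were then lower, a share near that of all genes (median log2 ratio -0.32). The cells scored as cycling after thinning (231 and 35 cells) were also left out. Unthinned, 427 and 52 cells held the cycling marker UMIs, so part of these stayed in. Among the cells that remained, 10.8% of all genes were higher and 21.5% lower, at median depths of 10120 and 4178.5 UMIs. Then 16 of 16 naive and memory genes were higher and 11 of 15 inhibitory genes lower. Of the cell cycle genes, some of which chose the cells left out, 23 of 24 were lower (median log2 ratio -1.31). Complement C1q transcripts, which macrophages make, summed to 8.67 and 117 CPM in this gate. Their part in the genes above was not tested.

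The TCKO pair had 342 and 57 CD8 T cells, with 18.0% of 6959 genes higher and 14.7% lower. Of 15 measured naive and memory genes there, 2 were higher and 1 lower, with a median log2 ratio of 0.13, from levels that were already high at day 9 (Klf2 at 588 and 1081 CPM, Tcf7 at 207 and 225 CPM). Ifng went from 472 to 59.1 CPM and Pdcd1 from 123 to 70.4 CPM. Thinned naive-like shares were 64.3% and 73.7%. The difference from the wild-type pair was not tested.

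NK cells had lower levels of interferon-induced genes at day 12. Of 8419 genes measured in this gate 10.1% were higher and 14.1% lower, whereas 16 of 22 type I interferon genes were lower and 0 higher (median log2 ratio -0.95), and 13 of 24 interferon gamma genes were lower and 1 higher (median -0.64). Ifit1, which binds viral RNA, was at 56.7 and 18.5 CPM, 3.06-fold lower (2.13 to 4.46). Isg15 was at 189 and 98.5 CPM, 1.92-fold lower (1.61 to 2.28). Iigp1, an interferon-induced GTPase, was at 22.5 and 3.02 CPM. The member that was higher was Socs1, an inhibitor of the same signal, at 43.7 and 72.1 CPM. In the TCKO pair, where 12.2% of genes measured in both pairs were higher and 13.7% lower, 5 of 17 type I genes were lower and 2 higher.

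Of 22 cytotoxic genes in NK cells 1 was higher (4.5%) and 4 lower (18.2%), beside 10.1% and 14.1% of all genes in this gate. Prf1 was at 88.1 and 97 CPM, Gzmb at 1748 and 2259 CPM, Gzma at 8054 and 6405 CPM and Ifng at 73.7 and 77.7 CPM. Gzmg was at 300 and 123 CPM, 2.44-fold lower (2.11 to 2.83), and the inhibitory receptor gene Klrc1 at 304 and 164 CPM. Cells with at least 2 UMIs of the granzymes C to G were 27 of 204 and 62 of 476 after thinning. Unthinned, they were 17.6% on both days. Of 15 Ly49 and related receptor genes 0 were higher and 1 lower, and NK cells with Ly49 UMIs were 71.6% and 72.1% after thinning. Ccl1, a ligand of CCR8 (chr11:82176657-82305690, minus strand), had 15 and 200 UMIs, or 10.2 and 75.5 CPM, a ratio of 7.37 (4.36 to 13.4). Ccl4, a chemokine of activated lymphocytes, was at 179 and 371 CPM, a ratio of 2.07 (1.81 to 2.38), and Zbtb32, a transcription factor of expanding NK cells, at 7.51 and 35.9 CPM. Itgb3, an integrin chain, was at 127 and 44.2 CPM, 2.88-fold lower (2.27 to 3.66).

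Cell cycle genes in NK cells were higher in 9 of 24 and lower in 1 (median log2 ratio 0.44). Top2a was at 71 and 126 CPM, Tk1, a thymidine kinase, at 26.6 and 55.9 CPM and Hist1h1b at 17.1 and 80.8 CPM, while Ccnb1, a mitotic cyclin, was at 27.3 and 15.8 CPM. Yet the share of cycling NK cells after thinning was 8.82% and 8.19%. Over cells with at least 3800 UMIs, 12.3% of all genes were higher and 16.7% lower. Then 19 of the 24 genes were higher and 0 lower, and 18 of 22 type I interferon genes were lower. That limit removed cells of day 12 only, and the part of this selection in the counts was not tested. C1q summed to 5.46 and 87.6 CPM in NK cells, and its part was not tested.

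In cDC1, of 7690 genes measured, 10.2% were higher and 11.3% lower. Plet1, a lipid-anchored surface protein (chr9:50494525-50505482, plus strand), had 2 and 166 UMIs, or 1.57 and 72.7 CPM, a ratio of 46.4 (12.7 to 386). Eva1b was at 25.9 and 103 CPM, a ratio of 4.0 (2.77 to 5.94). Mycl, a transcription factor that supports cDC1, was at 114 and 30.7 CPM, 3.73-fold lower (2.79 to 5.03), and the chemokine receptor gene Ccr2 at 502 and 233 CPM, 2.16-fold lower (1.92 to 2.42). Cholesterol synthesis genes were lower in 10 of 15 and higher in 0, with Idi1 at 52.5 and 12.7 CPM. Of 22 class I pathway genes 0 were higher and 6 lower, with H2-Q7 at 325 and 174 CPM, 1.86-fold lower (1.62 to 2.15), and B2m at 4336 and 3774 CPM. None of the 11 class II genes passed the fold. Interferon gamma genes were mixed, with 6 of 26 higher and 9 lower, for example Gbp2 at 73.7 and 142 CPM and Irgm1 at 223 and 95.1 CPM. Irgm1 was lower in all 7 gates compared. C1q summed to 6.27 and 117 CPM in this gate.

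The cDC2 gate held 48 and 169 cells, and 12.3% of 6654 genes were higher and 15.0% lower. Ccl17, a ligand of CCR4 that draws in regulatory and helper T cells (chr8:94810453-94812036, plus strand), had 6 and 653 UMIs, or 12.2 and 381 CPM, a ratio of 31.4 (14.3 to 85.8). Of 26 interferon gamma genes 1 was higher and 11 were lower (median log2 ratio -0.44). Cxcl9 was at 280 and 131 CPM and Cxcl10 at 223 and 104 CPM, 2.13-fold and 2.15-fold lower. Cell cycle genes were higher in 11 of 21 and lower in 2, with Top2a at 18.2 and 58.9 CPM and Ube2c at 12.2 and 56.6 CPM.

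In mature dendritic cells (47 and 132 cells), 9.71% of 5292 genes were higher and 17.0% lower. Of 18 maturation genes 2 were higher and 2 lower (11.1% each), with a median log2 ratio of -0.10. Their summed level had a ratio of 0.703 (0.689 to 0.718). Cells entered this gate by marker UMIs of mature dendritic cells, so these values cannot show whether maturation differed. Ccl17 had 13 and 811 UMIs, or 26.9 and 733 CPM, a ratio of 27.2 (15.8 to 51.3), so cDC2 and mature dendritic cells both had this gene at a low level at day 9. Of 15 myeloid chemokine genes 11 were higher and 3 lower, among them Cxcl9 at 93.2 and 319 CPM and Cxcl10 at 39.4 and 158 CPM, the opposite direction to cDC2. C1q summed to 8.29 and 275 CPM here and Lyz2 was at 143 and 413 CPM, and their part in these myeloid genes was not tested. Ccl5 was at 20370 and 11480 CPM, 1.77-fold lower, and Il12b, a subunit of interleukin 12, at 400 and 150 CPM, 2.67-fold lower (2.15 to 3.3). Cd274 was at 91.2 and 167 CPM. Of 10 measured cytotoxic and effector genes 0 were higher and 8 lower, with Gzmb at 76.7 and 28.9 CPM. T cell markers summed to 168 and 82.3 CPM and NK cell markers to 72.5 and 15.4 CPM in this gate, and their part was not tested. Chosen after their values were seen, Cd209e, a lectin, was at 172 and 3.62 CPM, 47.6-fold lower (17.9 to 179), and Plet1 had 0 and 60 UMIs. In the TCKO pair Ccl17 was already high, at 1773 and 1388 CPM, and Il12b was at 79.4 and 235 CPM.

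The other T cells, outside the CD8, CD4 and Foxp3 gates, numbered 108 and 234, with 12.5% of 6018 genes higher and 11.5% lower. Of 17 cell cycle genes 7 were higher and 0 lower, with Mcm5 at 20.7 and 60.6 CPM and Top2a at 31.9 and 79.1 CPM. Over cells with at least 3800 UMIs, where 17.7% of all genes were higher and 12.9% lower, 17 of 17 were higher (median log2 ratio 1.46 against 0.55). Only cells of day 12 were removed by that limit, and the part of this selection was not tested. Complement transcripts, which macrophages make, summed to 15.9 and 153 CPM in this gate, with 4 of 4 measured members higher, and C1q alone to 7.97 and 116 CPM. Their part was not tested. Igfbp7, a secreted binding protein, was at 12.8 and 52.4 CPM, a ratio of 4.11. Klrg1, a receptor of terminally differentiated T cells, was at 60.6 and 14.4 CPM, 4.21-fold lower, and Ccl4 at 159 and 24.7 CPM, 6.46-fold lower, which was opposite in direction to NK cells. The other T cell gates were too small for a description over all genes. In CD4 T cells without Foxp3, Tnfrsf4 (OX40) was at 785 and 180 CPM, a ratio of 0.23 (0.16 to 0.33).

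Over the 7 gates compared, 4365 genes were measured in each. Of these, 6 were past the 1.5-fold in all 7 gates upward (Gm42418, Gm26917, Ccl6, AY036118, C1qc and Ccl8) and 31 downward. The first 6 include the macrophage transcripts C1qc, Ccl8 and Ccl6, which were higher in the T and NK cell gates too, and Gm42418 and AY036118, which overlap ribosomal RNA genes. The genes lower in all 7 gates had at their head Serinc3, an inhibitor of retroviral particles (median log2 ratio -1.92, range -2.67 to -1.43), Hmgcs1 (-1.63), Nptn, an adhesion protein (-1.60), and Irgm1 (-1.47). Cmtm6, which stabilises PD-L1 (-1.37), and Il10ra, the interleukin 10 receptor (-1.30), were also among them. Of the 31 genes, 24 had a median below 0 in the TCKO pair as well. A difference of the same sign in every cell type of a pair of libraries cannot be told apart from a difference between 2 preparations.

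**Figure D4:**
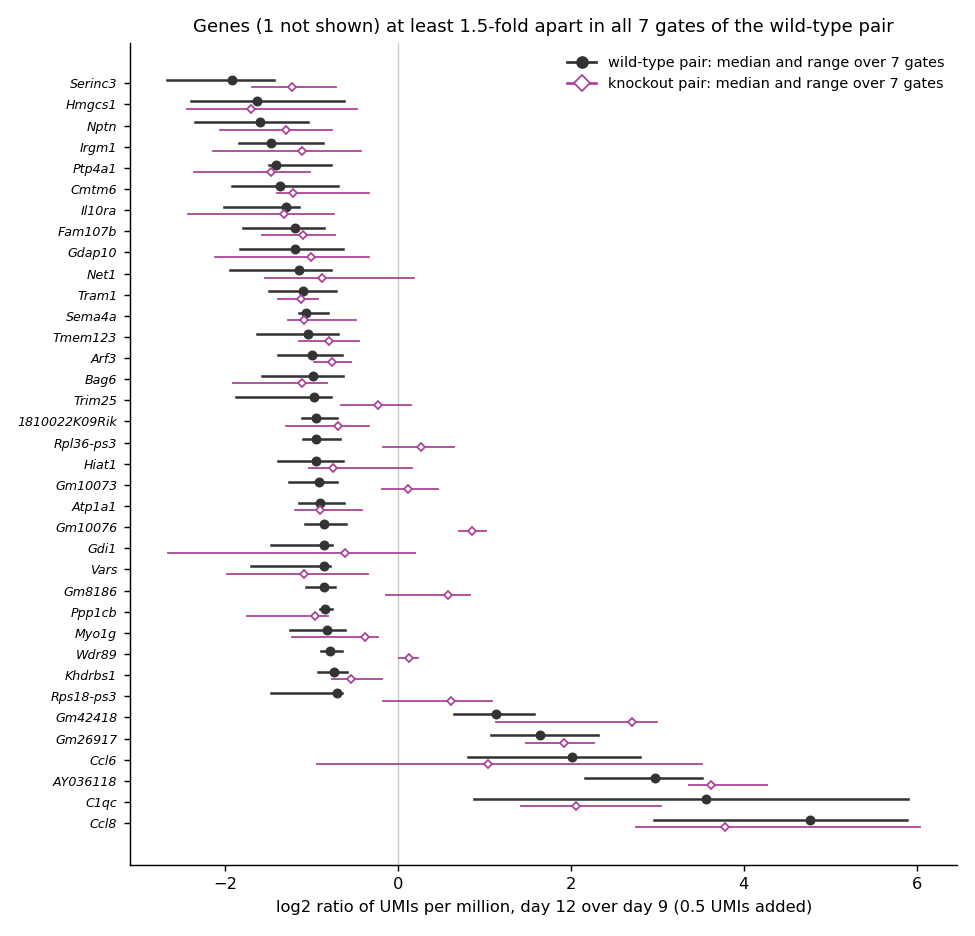
Log2 ratio of day 12 over day 9 (horizontal axis) for the genes past 1.5-fold in all 7 wild-type gates, as the median and range over the gates, with the TCKO pair beside it; 1 of the 31 lower genes is not shown. The 6 genes higher everywhere lie to the right, up to Ccl8 with a wild-type median of 4.77, and Serinc3 lies furthest to the left with a median of -1.92.

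The gene lists differed by lineage. Cholesterol synthesis had a median below -0.5 in CD8 T cells (-1.0), cDC1 (-0.71), mature dendritic cells (-0.58) and monocytes and macrophages (-1.22), while in NK cells 1 of 15 was higher and 2 were lower. Cell cycle medians were below 0 in CD8 T cells (-0.57) and above 0 in NK cells (0.44), other T cells (0.55) and cDC2 (0.63). Respiratory chain genes, which serve as a contrast, had 0 members higher in any gate and 2 of 24 lower in CD8 T cells and in mature dendritic cells. Immediate early and heat shock genes, which respond to tissue digestion, had 1 of 18 higher and 2 lower in CD8 T cells, 2 of 17 higher and 2 lower in NK cells and 1 of 18 higher and 2 lower in monocytes and macrophages. Malat1, a nuclear RNA whose share of UMIs is high in damaged cells, took 0.574% and 1.12% of UMIs in CD8 T cells, 1.09% and 1.64% in NK cells and 0.871% and 1.48% in monocytes and macrophages. Its part in the results was not tested.

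**Figure D5:**
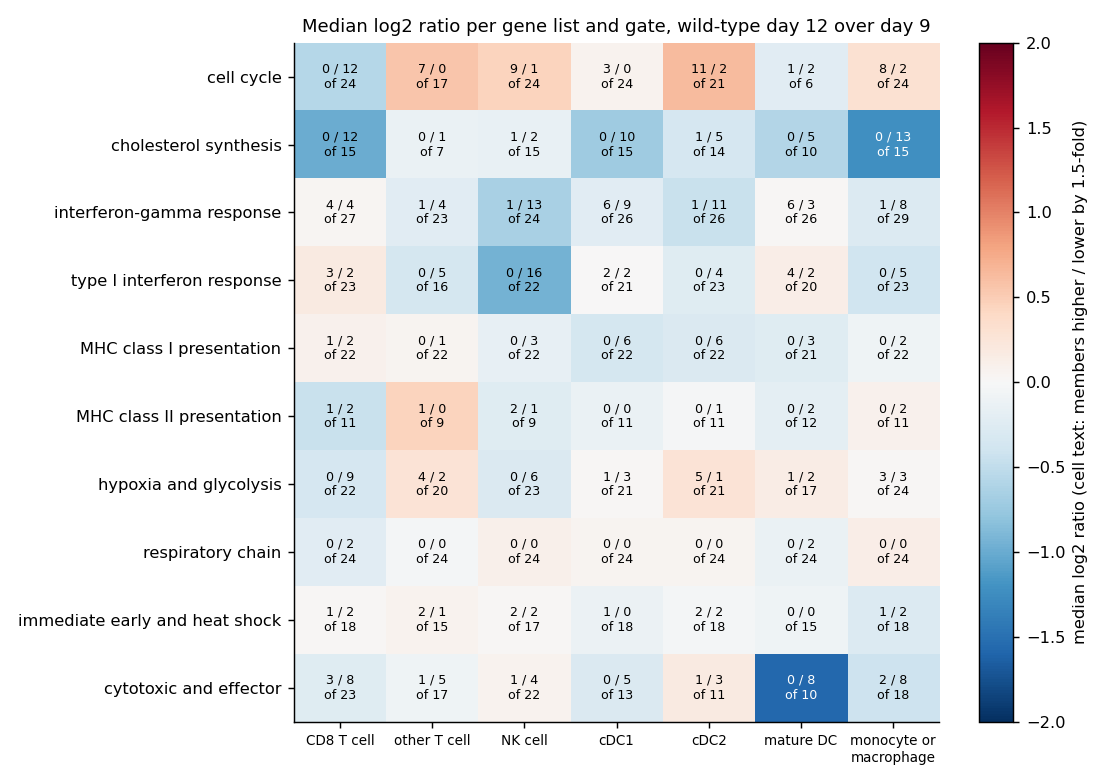
Median log2 ratio of day 12 over day 9 (colour) for 10 gene lists (rows) in 7 lineages (columns) of the wild-type pair, with the numbers of members higher, lower and measured in each cell. Among the cells shown, the lowest are cytotoxic genes in mature dendritic cells at -1.57 and cholesterol synthesis in monocytes and macrophages at -1.22, and the respiratory chain row is pale throughout.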

How the data were processed

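The authors deposited 1 filtered gene-by-barcode matrix of UMI counts per library, made with Cell Ranger 2.0.2 and build mm10, per the submitters' processing notes. The annotation, and whether doublets were removed, are not given in the sources used here. Barcodes with at least 200 genes and at most 10% mitochondrial UMIs were kept: 1777 of 1778 at day 9 (21448114 UMIs in all) and 3673 of 3684 at day 12 (29662903 UMIs). The files list 27998 genes.

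Lineages were gated on marker UMI sums (3 for T, NK and B cells, cDC1, cDC2 and monocytes or macrophages, 4 for plasmacytoid and 5 for mature dendritic cells), and the leading lineage needed at least 2 times the UMIs of any competitor. No doublets were removed: Scrublet's own threshold marked 3 and 1 barcodes and so did not work, and an alternative removed 0.8% per 1000 barcodes. UMIs were summed per gate and library and scaled to CPM. Log2 ratios had 0.5 UMIs added. Intervals are 95% exact Poisson intervals for levels, exact conditional intervals for ratios, Clopper-Pearson intervals for shares and log-scale intervals for ratios of shares. A gene with 0 UMIs was set to a floor of 3 UMIs over the gate's sum. Python 3.11.15 with numpy 2.4.6, scipy 1.17.1, pandas 2.3.3 and scanpy 1.11.5 was used, and edgeR 4.0.16 only for TMM factors as an alternative. The scripts were tested on simulated data.

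The members and the 23 gene lists were chosen with earlier results of these data known, and gate thresholds and the marker subsets of states were set after the data were seen. Genes are named as members of a list (the most abundant, the most different in each direction and the exceptions), as markers, or as the 12 highest and 12 lowest by the interval bound nearest 1 in gates with at least 50 cells in both libraries, among genes with at least 50 UMIs that reach 0.25 of their level in any other gate. cDC2 and mature dendritic cells had fewer cells, so genes there come from the lists unless stated. Gene positions are from GENCODE vM21 (GRCm38). A few genes are not reported here.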

Additional observations from a re-analysis of the deposited data

Results flagged for a closer look

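The share of monocytes and macrophages went opposite ways in the 2 genotypes between day 9 and day 12. Its ratio was 3.26 in the wild-type pair, from 15.1% to 49.2%, and 0.925 in the miR-155 TCKO pair, from 49.9% to 46.2%. With 1 library per group and day the difference was not tested.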

How the results depend on the processing

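No paired analysis was possible because each side of the comparison was 1 library. No library was left out for the same reason.

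Of 60 alternative share ratios 54 moved by less than their counting interval. The limit of 3800 UMIs was chosen after seeing the data and removed cells of day 12 only. It gave ratios of 0.122 for CD8 T cells, 0.395 for other T cells, 0.718 for NK cells and 3.84 for monocytes and macrophages. Gating on barcodes thinned to 2000 UMIs gave 0.429 for other T cells and 0.607 for cDC1. So the small differences in NK cells, cDC1 and other T cells depend on how depth is treated, and the cause was not tested.

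Counts of genes past the fold followed the threshold. At 2-fold the numbers higher and lower were 440 and 820 in CD8 T cells, 217 and 218 in other T cells, 280 and 415 in NK cells, 262 and 256 in cDC1, 327 and 305 in cDC2, 185 and 330 in mature dendritic cells and 571 and 370 in monocytes and macrophages, against 1167 and 1836, 750 and 695, 852 and 1189, 788 and 870, 820 and 1001, 514 and 902, and 1227 and 1230 at 1.5-fold. With at least 50 UMIs they were 290 and 219 in other T cells, 482 and 644 in NK cells, 382 and 422 in cDC1, 380 and 427 in cDC2, 224 and 326 in mature dendritic cells, and 756 higher in CD8 T cells, since fewer genes were counted. With no minimum they were 2986 and 2934, 2509 and 2754, 2494 and 2445, 1792 and 2826, 1823 and 3350 in the same order, 1850 and 3320 in monocytes and macrophages, and 3886 higher in CD8 T cells, where single UMIs pass the fold. TMM and median-of-ratios scaling, stricter gates, removal of high Scrublet scores and a mitochondrial limit of 5% left these counts within 1.5 times.

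Of 1633 alternative list medians 1272 moved by at most 0.1 (log2), 359 moved by more. Of 1104 values of named genes 40, and of 32 ratios of state shares 3 (where thinning was left out), moved outside their counting interval. The sign of 109 list medians changed, for 107 of them from a median under 1.5-fold. The other 2 were both in other T cells: alternatively activated macrophage genes at -0.317 with at least 50 UMIs, and myeloid chemokine genes at -0.58 without the genes past the fold in all 7 gates. Neither list is described for that gate. TMM factors shifted the median of all genes by 0.1293 (log2) in mature dendritic cells and every other scaling by at most 0.1. The shallow CD8 T cells of day 12 and the gates under 50 cells limit the precision of low genes.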
